A study of Mus musculus with 12 samples.

Results

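The genes of mouse chromosome 8 were compared between tumours of an anti-PD-1 resistant line and tumours of its parental line. The members are the genes that a mouse gene table places on chromosome 8, each represented by its probe set of highest mean level on the 12 arrays, with at least 3 arrays above the 25th percentile of all values (3.32 on the log2 scale). Of 932 such genes named on the array, 816 passed this filter, out of 15493 genes tested in all, and 116 did not pass. The chromosome was chosen because its genes had read higher in the resistant tumours in these same data, so the differences between the lines are a description. Counts of limma calls in those contrasts are printed beside the share over all genes, and nothing is read from them. RNA came from whole tumours grown under the skin of the right flank of female 129sv/ev mice from 344SQ, a lung adenocarcinoma line of the mouse. Mice bearing the parental line or its resistant derivative were dosed 4 and 7 days after the cells were injected, with 10 mg/kg of either control IgG or anti-PD-1 antibody, and tumour tissue was taken on day 11. Anti-PD-1 is an antibody that blocks PD-1, an inhibitory receptor of T cells. The 4 groups, parental with IgG, parental with anti-PD-1, resistant with IgG and resistant with anti-PD-1, have 5 mice and 3 arrays each. The labels do not say which mice lie behind an array, so a p-value covers the spread among these arrays alone, and 1 resistant line was compared with 1 parental line.

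Cultured cancer cells often gain or lose whole chromosomes or arms, and the RNA of many genes on such a chromosome then shifts by a small and similar amount. An expression array reads RNA and not DNA, so it does not count copies of a chromosome, and DNA was not analysed here. Mouse chromosome 8 carries genes of many unrelated roles, among them subunits of the replicative helicase, respiratory chain subunits, cadherins, metallothioneins and carboxylesterases. A whole tumour also holds host cells with their own chromosomes, and in such bulk RNA fewer cells of a type and less RNA per cell cannot be told apart.

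The letters just before the start of 4 of these genes are shown because the genes carry unrelated roles and differ widely between the lines. Mcm5 and Vegfc lie in separate stretches of the chromosome, while Ciao2b and Ces2g follow each other among the genes tested. They are the 250 bases before the annotated start in RefSeq, assembly GRCm38.p6, with Mcm5 at chr8:75109259-75109508 on the plus strand, Ciao2b at chr8:104641729-104641978 on the minus strand, Ces2g at chr8:104961468-104961717 on the plus strand and Vegfc at chr8:54077282-54077531 on the plus strand. Capitals mark matches, on either strand, to 4 motifs: the GC box GGGCGG, the CCAAT box CCAAT, the TATA box TATAAA and the E2F motif TTTCCCGC or TTTGGCGC. No capital stretches of different motifs overlap.

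Mcm5: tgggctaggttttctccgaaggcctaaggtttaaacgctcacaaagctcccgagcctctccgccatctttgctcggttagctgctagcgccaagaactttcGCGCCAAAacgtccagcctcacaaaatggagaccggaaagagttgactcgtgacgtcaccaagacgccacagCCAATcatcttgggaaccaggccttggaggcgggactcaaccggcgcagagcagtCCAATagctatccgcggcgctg

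Ciao2b: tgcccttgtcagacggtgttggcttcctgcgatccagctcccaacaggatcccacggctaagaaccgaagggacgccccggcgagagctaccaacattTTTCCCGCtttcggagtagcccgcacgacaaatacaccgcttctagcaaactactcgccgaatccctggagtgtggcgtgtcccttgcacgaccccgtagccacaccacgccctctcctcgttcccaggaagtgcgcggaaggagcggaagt

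Ces2g: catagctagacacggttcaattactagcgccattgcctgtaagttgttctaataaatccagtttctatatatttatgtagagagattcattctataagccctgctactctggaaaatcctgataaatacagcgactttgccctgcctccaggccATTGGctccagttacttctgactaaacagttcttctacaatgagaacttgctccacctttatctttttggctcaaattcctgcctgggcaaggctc

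Vegfc: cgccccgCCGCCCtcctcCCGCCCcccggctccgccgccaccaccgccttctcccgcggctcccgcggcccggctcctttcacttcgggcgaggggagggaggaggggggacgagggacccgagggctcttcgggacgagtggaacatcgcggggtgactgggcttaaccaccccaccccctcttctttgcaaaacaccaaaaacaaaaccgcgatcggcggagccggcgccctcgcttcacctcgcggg

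The Mcm5 window holds 2 CCAAT boxes and 1 E2F motif, the Ciao2b window 1 E2F motif, the Ces2g window 1 CCAAT box and the Vegfc window 2 GC boxes. Over 27025 promoters of this length, 34.5% hold a CCAAT box, 32.9% a GC box, 13% a TATA box and 1.35% an E2F motif. The windows share no motif that all of them hold, and a match describes letters and not a bound site. A promoter was found for 562 of the 816 genes (68.9%), too few for a comparison of promoter content, and none was made.

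Chromosome 8 read higher in the resistant tumours under both antibodies. Every block of 25 neighbouring genes had a median above 0, which 63.3% of blocks on other chromosomes had as well. The median gene was higher by 0.25 on the log2 scale under IgG (1.19-fold) and by 0.27 under anti-PD-1 (1.21-fold). The medians over 14568 genes of the other chromosomes were 0.06 and 0.07. These 2 medians put chromosome 8 first of 20 chromosomes under each antibody, and chromosome 4 came next with 0.15 and 0.14. Under IgG 698 of the 816 genes (85.5%) had a difference above 0, under anti-PD-1 624 (76.5%), and 587 (71.9%) under both. Over all genes tested 60.7% were above 0 under IgG, 59.4% under anti-PD-1 and 46.1% under both. The filter can keep a gene through the group in which it is high, and over all 932 genes named, with no filter, the medians were 0.23 and 0.21.

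Single genes moved by amounts that the small median hides. Under IgG limma called 243 of the 816 at an adjusted p under 0.05, 230 higher and 13 lower, beside 16.2% of all genes called (8.93% higher and 7.31% lower). Under anti-PD-1 it called 407, 369 higher and 38 lower, beside 33.5% of all genes (21.6% higher and 11.9% lower), and 204 were called higher under both, beside 6.27%. Without replicate 3 of the parental IgG group the first count was 153, without replicate 1 of the resistant IgG group 145 and without replicate 2 of that group 143. The shares of all genes called were then 10.1%, 9.50% and 8.22%. All 3 resistant arrays lay above all 3 parental arrays for 386 genes under IgG (23.6% of all genes did so), for 431 under anti-PD-1 (29.9%), and for 297 (36.4%) under both, beside 13.1% of all genes. In the opposite direction 19 chromosome 8 genes (2.33%) had every resistant array below every parental one under both antibodies, beside 8.21% of all genes. Of the 816 genes, 21 under IgG and 37 under anti-PD-1 were at least 2-fold higher, and 5 and 16 were at least 2-fold lower. No share over all genes is given for these counts, so nothing is read from them.

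The shift was spread over the genes rather than carried by a few with large differences. Set against the other chromosomes, the chromosome 8 distribution under IgG lay higher by 0.29 at its 10th percentile, by 0.22 at the 25th, by 0.21 at the 75th and by 0.26 at the 90th. Under anti-PD-1 the same steps were 0.23, 0.18, 0.30 and 0.29. At the 95th percentile the steps were 0.17 and 0.23. The low end was displaced as well as the high end, by steps between 0.17 and 0.30 at these points.

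**Figure D1:**
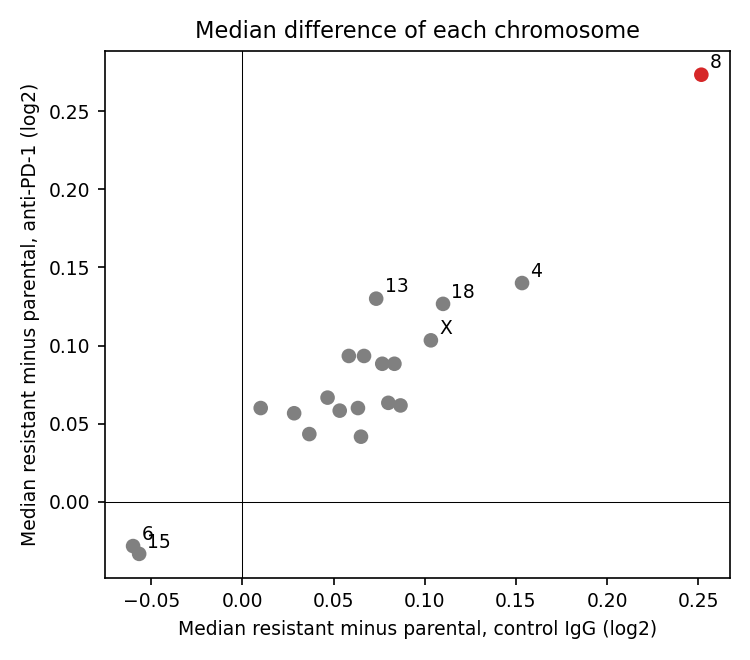
Median difference between resistant and parental tumours (log2) of the genes of each chromosome, under IgG (horizontal axis) and under anti-PD-1 (vertical axis), with 1 point per chromosome and some numbered. Chromosome 8 has the highest median of the 20 chromosomes under both antibodies, 0.25 and 0.27, and chromosomes 6 and 15 lie below 0.

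Each array was also given 1 chromosome 8 level, the median over the 816 genes of the gene's deviation from its mean over 12 arrays, minus the same median over the genes of all other chromosomes. The parental IgG arrays read -0.10, -0.12 and -0.12 (mean -0.11 ± 0.012, SD, n = 3), and the parental anti-PD-1 arrays read -0.09, -0.08 and -0.12 (-0.10 ± 0.023). The resistant IgG arrays read 0.13, 0.09 and 0.07 (0.09 ± 0.032), and the resistant anti-PD-1 arrays read 0.14, 0.13 and 0.14. All 6 resistant arrays lay above all 6 parental arrays, with a gap of 0.14 between the nearest arrays and a difference of 0.22 between the means of the lines. The levels of chromosomes 2, 4, 6, 13, 15 and 18 also separated the lines, by differences of -0.03, 0.09, -0.13, 0.04, -0.12 and 0.06, each smaller in size than that of chromosome 8.

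**Figure D2:**
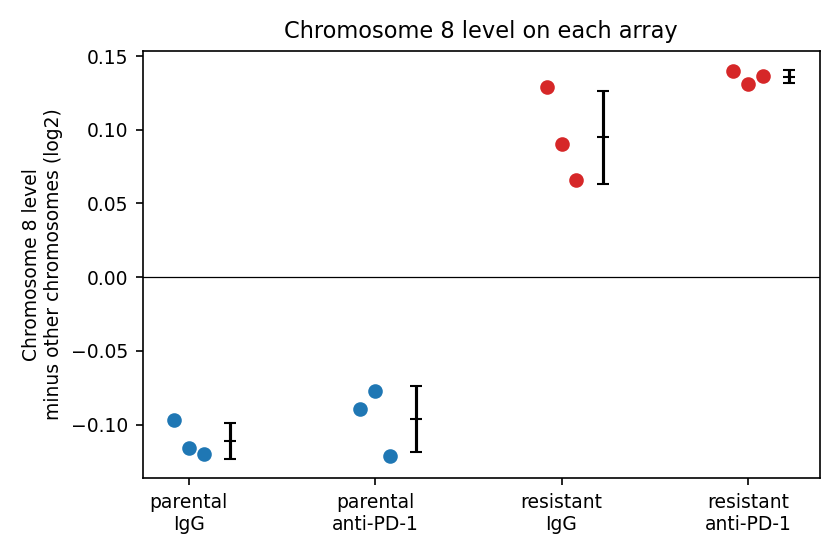
Chromosome 8 level (log2, median over 816 genes minus the median over the other chromosomes) of each of the 12 arrays, by group. Points are arrays and the black mark is the mean ± SD of 3 arrays. The 6 parental arrays lie between -0.12 and -0.08 and the 6 resistant arrays between 0.07 and 0.14.

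Along the chromosome the genes were taken in the order of the gene table, in 33 blocks of 25 neighbouring genes of which the last holds 16. All 33 blocks had a median above 0 under both antibodies, between 0.14 and 0.37 under IgG and between 0.07 and 0.59 under anti-PD-1, and of 581 blocks of the other chromosomes 63.3% did so. In 32 of the 33 (97.0%) the median was over 0.1 under both antibodies, against 86 of the 581 elsewhere (14.8%). The longest unbroken run of such blocks was 20 on chromosome 8 and 4 on chromosomes 4 and 18. In 31 of the 33 blocks the block level of every resistant array exceeded that of every parental array, and this held for 47 of the 581 elsewhere (8.09%). The exceptions were the block from Ankrd10 to Rasa3 and the block from Fhod1 to Lcat. In blocks of 15 genes 54 of 54 were above 0 under both, beside 59.9% elsewhere, with the lowest at 0.02 under anti-PD-1 and 49 of 54 over 0.1 under both. In blocks of 50 genes 17 of 17 were above 0, beside 69.9% elsewhere.

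The shift was not even in size. The highest block under IgG ran from Otud4 to Prkaca, with 0.37 there and 0.44 under anti-PD-1. The highest under anti-PD-1 ran from Hpf1 to Sh2d4a, with 0.59 against 0.29 under IgG, but a running median over 25 genes moved there between 0.12 and 0.59 under anti-PD-1, so that height depends on where the block starts. The lowest under anti-PD-1 ran from Mmp2 to Ciapin1, with 0.07, the same as the 0.07 of the other chromosomes, against 0.22 under IgG. Under anti-PD-1 14 of 792 running medians lay below the median of all genes, and none did so under IgG. The windows of 25 genes behind them were centred on the genes from 1700128E19Rik to Spaca7, Mtmr7 to Mtus1, Mt2 to Nup93 and Taf1c to Adad2. In 4 stretches of 204 genes each, the first (Insr to Pcm1) had medians of 0.23 under IgG and 0.20 under anti-PD-1, the second (Asah1 to Il15) 0.28 and 0.40, the third (Zfp330 to Zfp90) 0.25 and 0.25, and the fourth (Cdh3 to 2610044O15Rik8) 0.25 and 0.27. Each of these 4 lay above the medians of the other chromosomes under both antibodies, so the shift was not limited to 1 of them. On the shorter scale of 25 genes, the 14 running medians named above did not exceed the median of all genes under anti-PD-1.

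**Figure D3:**
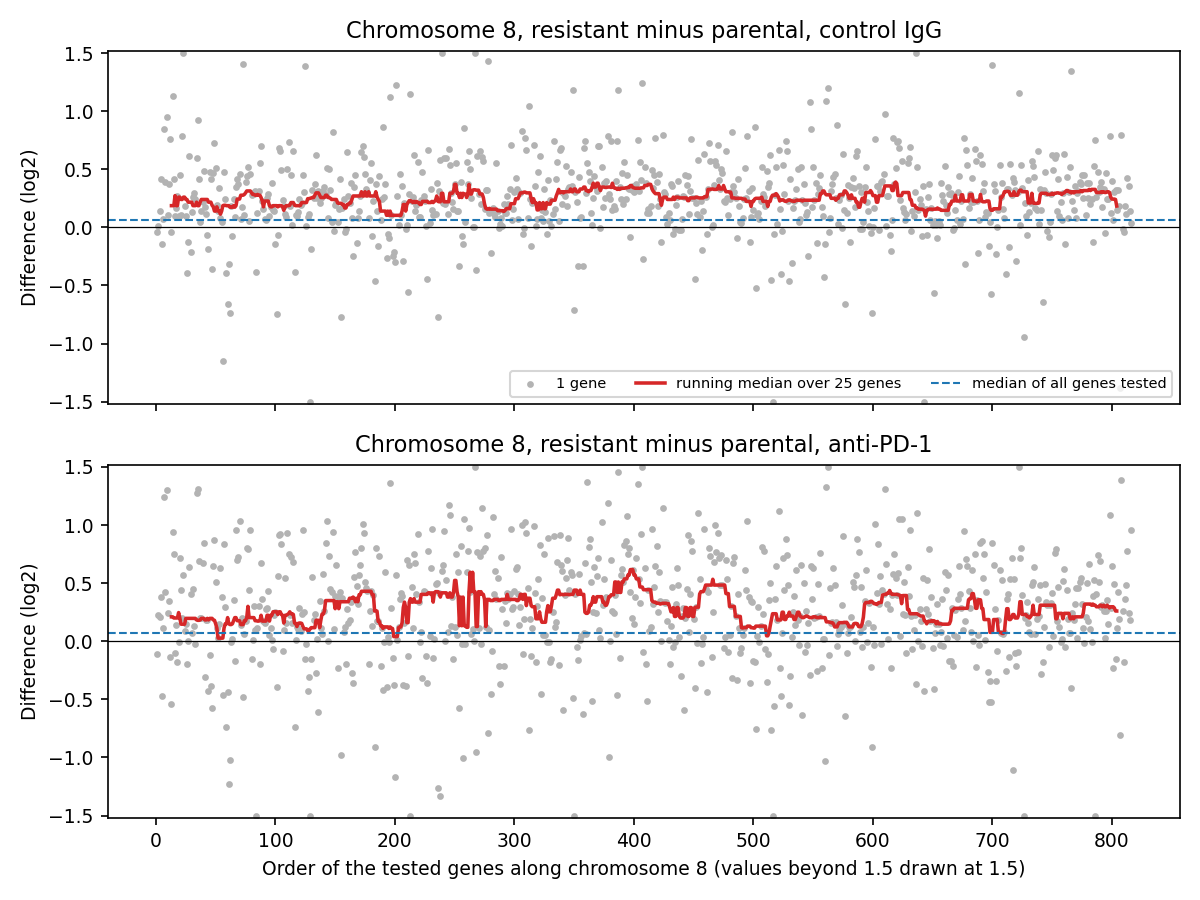
Difference between resistant and parental tumours (log2) of each chromosome 8 gene in gene order, under IgG and under anti-PD-1, with a running median over 25 genes (red) and the median of all genes tested (dashed blue). Values beyond 1.5 are drawn at 1.5, and the running median, which cannot be taken for the 12 genes at each end, lies above 0 throughout, between 0.10 and 0.39 under IgG and between 0.03 and 0.62 under anti-PD-1.

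Genes with higher signal showed the larger shift. With the genes split by mean level into 3 classes of equal size, the lowest held 242 chromosome 8 genes with medians of 0.16 under IgG and 0.11 under anti-PD-1, beside 0.12 and 0.06 elsewhere. In the middle class 270 genes had 0.27 and 0.34, beside 0.03 and 0.04. In the highest class 304 genes had 0.34 and 0.42, beside a median just below 0 and one of 0.09. Probe sets that were not chosen to stand for a gene gave the same direction, with medians of 0.20 and 0.21 over 674 further probe sets of 384 chromosome 8 genes, beside 0.02 and 0.05 over 12447 elsewhere. At the edge of the filter the differences ran from -0.14 to 0.25. Just inside, Ccdc70 (at 3.33 in the array that decides the filter) differed by -0.14 and 0.25 under IgG and anti-PD-1, Kcng4 (3.33) by 0.08 and 0.08, and Fcer2a (3.34) by 0.10 and -0.10. Just outside, Ces2a (3.30) differed by 0.04 and 0.00.

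Genes of DNA replication and the cell cycle formed 1 of 10 lists of chromosome 8 genes grouped by role. All 26 tested had a difference above 0 under both antibodies, with medians of 0.50 and 0.72. Under IgG 16 were called higher and none lower, under anti-PD-1 21 and none, and for 21 no parental array reached a resistant one under either antibody. Over all genes 60.7% and 59.4% were above 0, 8.93% and 21.6% were called higher and 13.1% had no such overlap. These shares also stand beside the counts of the other role lists. For all 10 lists the medians and counts describe the values that chose the chromosome and support no ranking. Mcm5, a subunit of the MCM helicase that unwinds DNA at the replication fork, read 8.37, 8.85 and 8.34 in parental IgG tumours and 9.77, 9.66 and 9.68 in resistant ones, and 8.44, 8.97 and 7.59 against 9.83, 9.90 and 9.63 under anti-PD-1. No parental array reached the lowest resistant one, and the differences were 1.18 and 1.45 (SE 0.27).

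The same helicase complex includes the GINS subunits, of which 3 are encoded on chromosome 8. Gins2 read 7.11, 7.20 and 6.99 in parental and 8.27, 8.59 and 7.92 in resistant IgG tumours, and 6.62, 6.98 and 6.05 against 8.39, 8.43 and 8.29 under anti-PD-1. Its lines did not overlap, with differences of 1.16 and 1.82 (SE 0.21), and under anti-PD-1 the parental array 3 was the lowest of all. Gins3 differed by 0.52 and 0.66 and Gins4 by 0.45 and 0.95. Gins1, the remaining subunit, lies on chromosome 2 and differed by 0.48 and 0.98, so its values fell among those of the 3 on chromosome 8. The 5 other MCM subunits, all elsewhere, differed by 0.06 to 0.49 under IgG and 0.48 to 0.86 under anti-PD-1, below Mcm5.

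Orc6, a subunit of the origin recognition complex that marks where replication starts, read 7.53, 7.60 and 7.42 in parental and 8.12, 8.10 and 8.04 in resistant IgG tumours, and 7.22, 7.43 and 6.71 against 8.19, 8.11 and 8.05 under anti-PD-1. The groups did not overlap, and the differences were 0.57 and 1.00, against 0.10 to 0.36 and 0.47 to 0.76 for Orc1 to Orc5 on other chromosomes. Hmgb2, a chromatin protein of dividing cells, differed by 0.68 and 1.17. Tfdp1, the partner of E2F transcription factors, differed by 0.46 and 1.03, and Cdt1, which loads the helicase on DNA, by 0.60 and 0.76. Polr2c, a subunit of RNA polymerase II counted in this list, differed by 0.75 and 0.88. The sets of subunits compared with other chromosomes were picked after the values were known.

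**Figure D4:**
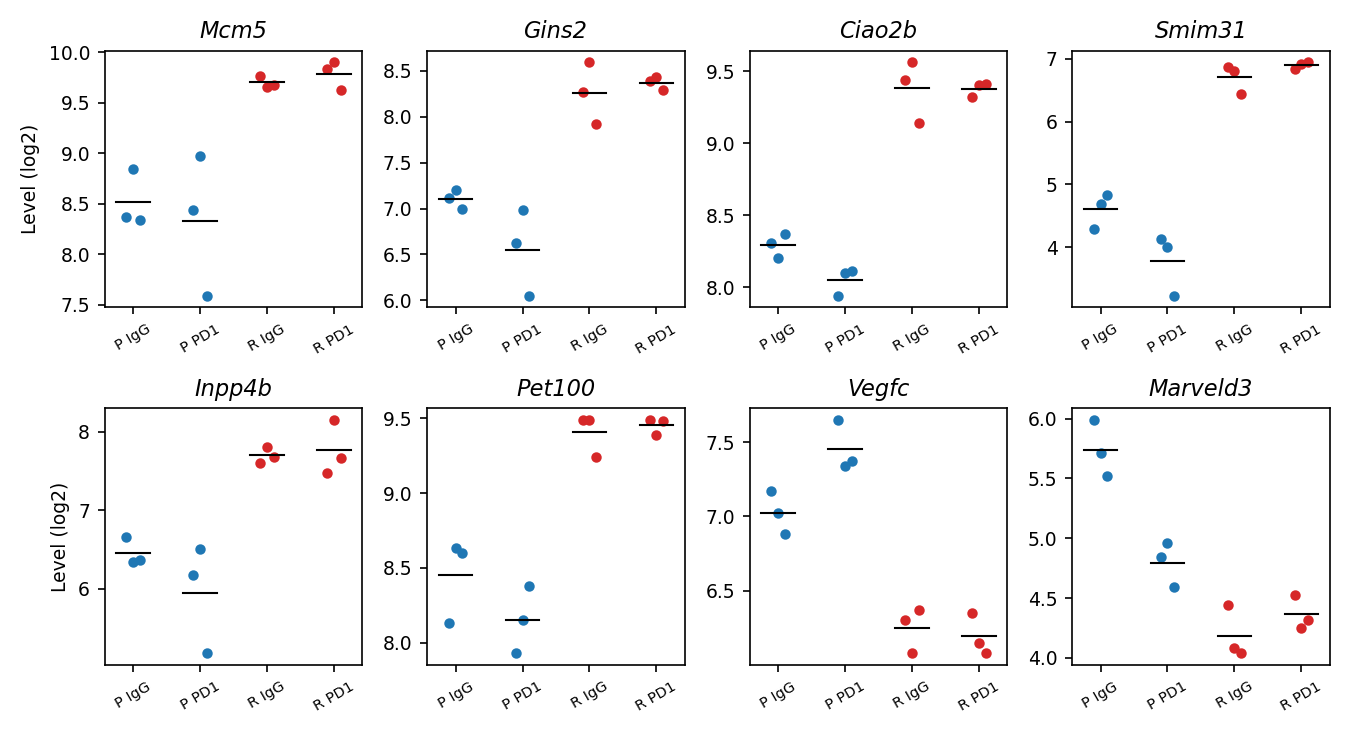
Level (log2) in each array of 6 genes that were higher and 2 that were lower in resistant tumours (R, red) than in parental tumours (P, blue), under IgG and anti-PD-1 (PD1). Points are arrays and black lines are means of 3. The arrays of the lines do not overlap for any of the 8 genes under either antibody.

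Mitochondrial and metabolic genes had medians of 0.29 and 0.41 over 26 tested. Of these, 22 were above 0 under IgG and 23 under anti-PD-1, 6 and 16 were called higher, and 1 was called lower, under anti-PD-1. Cox4i1, a subunit of cytochrome c oxidase at the end of the respiratory chain, read 11.70, 11.78 and 11.73 in parental and 12.11, 12.22 and 11.90 in resistant IgG tumours, and 11.69, 11.68 and 11.74 against 12.09, 12.09 and 12.13 under anti-PD-1. The lines did not overlap, and the differences of 0.34 and 0.40 compare with a median of -0.04 and 0.11 for 8 subunits on other chromosomes, which ranged from -0.15 to 0.14 and from -0.10 to 0.89.

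Pet100 and Coa6, which help assemble cytochrome c oxidase, were among the 12 highest genes of the chromosome. Pet100 read 8.13, 8.63 and 8.60 in parental and 9.49, 9.49 and 9.24 in resistant IgG tumours, and 7.93, 8.15 and 8.38 against 9.49, 9.39 and 9.48 under anti-PD-1. Its differences were 0.95 and 1.30 with no overlap, and those of Coa6 were 0.80 and 1.39. Slc25a4, the carrier that exchanges ATP and ADP across the inner mitochondrial membrane, differed by 0.20, with overlap, and by 0.40, without. Gpt2, a mitochondrial alanine transaminase, differed by 0.71 and 0.93 and overlapped under IgG. Cpe, a carboxypeptidase that trims peptide hormones, differed by 0.56 and 0.59 with no overlap.

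Genes of translation and RNA handling had medians of 0.33 and 0.41 over 19 tested, with 18 and 17 above 0, 10 and 11 called higher, and 1 called lower under anti-PD-1. Kars, the enzyme that charges transfer RNA with lysine, read 9.57, 9.43 and 9.51 in parental and 10.18, 10.29 and 10.05 in resistant IgG tumours, and 9.55, 9.68 and 9.27 against 10.19, 10.21 and 10.22 under anti-PD-1. All resistant arrays were higher, by 0.67 and 0.71. Nip7, needed to make ribosomes, differed by 0.57 and 1.05. Ddx49, an RNA helicase, differed by 0.77 and 1.03, though a further probe set pointed the other way.

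Proteasome and trafficking genes had medians of 0.22 and 0.21 over 23 tested, with 8 and 10 called higher and 1 called lower under anti-PD-1, and 2 proteasome genes moved in opposite directions. Psmd7, a subunit of the cap of the proteasome, read 8.78, 8.66 and 8.65 in parental and 9.35, 9.52 and 9.29 in resistant IgG tumours, and 8.44, 8.54 and 8.29 against 9.41, 9.37 and 9.35 under anti-PD-1. It was higher without overlap by 0.69 and 0.95, while 10 other proteasome subunits on other chromosomes ranged from -0.02 to 0.26 and from -0.23 to 0.44. A further probe set of Psmd7 pointed the other way. Psmb10, a subunit of the immunoproteasome that interferon gamma induces, differed by -0.74 and -0.91, with overlap under both antibodies. Map1lc3b, a marker of autophagosomes, differed by 0.53 and 0.51 (with a further probe set that pointed the other way), and Herpud1, induced by stress of the endoplasmic reticulum, by 0.62 and 0.50, without overlap.

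The region around Fgfr1, whose human counterpart is often amplified in cancers of the lung and breast, did not stand above the rest of the chromosome. Its 18 genes tested had medians of 0.29 under IgG and 0.27 under anti-PD-1, close to the 0.25 and 0.27 of all 816 genes. Of these 17 and 13 were above 0, 6 and 9 were called higher and none lower. Fgfr1, a receptor for fibroblast growth factors, read 6.75, 7.24 and 6.72 in parental and 7.13, 7.29 and 7.23 in resistant IgG tumours, and 7.23, 7.18 and 8.0 against 7.15, 6.87 and 6.55 under anti-PD-1. The lines overlapped under IgG, with a difference of 0.31, and under anti-PD-1 the resistant arrays were lower, with -0.61. Ash2l, a subunit of histone H3 methyltransferases, was higher by 0.50 and 0.73 and Lsm1, which acts in mRNA decay, by 0.51 and 1.03, both without overlap. A further probe set pointed the other way for each of these 3 genes. Eif4ebp1, a repressor of translation under mTOR control, differed by 0.65 without overlap and by 0.28 with overlap.

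Redox, metal and stress genes had a median of 0.27 under IgG and of 0.01 under anti-PD-1 over 22 tested, and no gene of the chromosome was called for a difference between these contrasts (0 of 816 by limma, 135 at an unadjusted p under 0.05). Of these 20 were above 0 under IgG and 11 under anti-PD-1, with 7 and 6 called higher and 2 called lower, both under anti-PD-1. Gsr, the enzyme that restores reduced glutathione, read 9.94, 9.86 and 9.73 in parental and 10.49, 10.52 and 10.33 in resistant IgG tumours, and 9.84, 9.85 and 9.13 against 10.48, 10.64 and 10.50 under anti-PD-1. It was higher without overlap by 0.60 and 0.93. Slc7a2, the other gene named from this list by its line difference, overlapped under IgG. Under anti-PD-1 all its resistant arrays lay below all its parental ones, with the values given below. Hmox1, which breaks down heme, was higher by 0.75 under IgG and differed by -0.46 under anti-PD-1, in each case without overlap. Nqo1, a quinone reductase, read between 3.21 and 4.15 on all arrays and differed by 0.12 and -0.10 with overlap. The metallothioneins Mt1 and Mt2, which bind zinc and copper, differed by 0.35 and 0.48 under IgG and by -0.11 and -0.35 under anti-PD-1, with overlap, and a further probe set of Mt1 pointed the other way.

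Matrix and vessel genes and immune genes had medians below 0 under anti-PD-1. The 19 matrix and vessel genes had a median of 0.43 under IgG and -0.18 under anti-PD-1, with 16 and 7 above 0. Under IgG 2 were called higher and 2 lower, and under anti-PD-1 none higher and 4 lower. Col4a1 and Col4a2, chains of the basement membrane collagen, differed by 0.48 and 0.41 under IgG and by -0.12 and -0.39 under anti-PD-1. The 36 immune and myeloid genes had medians of 0.10 and -0.12, with 3 higher and 1 lower called under IgG and 5 higher and 6 lower under anti-PD-1. Nlrc5, which turns on MHC class I genes, read 5.59, 7.98 and 8.07 in parental and 5.21, 3.58 and 6.36 in resistant IgG tumours, and 7.84, 8.97 and 9.07 against 5.43, 5.50 and 7.36 under anti-PD-1. Only under anti-PD-1 did its lines not overlap, and the differences were -2.16 and -2.53 (SE 0.83). Irf8, a transcription factor of myeloid cells, differed by -0.94 and -1.61 with overlap.

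Markers of host cells also differed between the groups, but not all in the same direction. The mean level of 11 T and NK cell markers (of 12 listed) ranged from 4.85 to 6.01 over the parental IgG arrays and from 5.48 to 6.55 over the parental anti-PD-1 arrays, against 4.71 to 5.00 and 4.79 to 5.41 in resistant tumours. That of 10 endothelial markers ranged from 5.28 to 5.72 and from 5.86 to 7.00 in parental tumours, against 6.14 to 6.64 and 5.81 to 6.17 in resistant ones. The 10 fibroblast markers ranged from 8.26 to 8.97 and from 8.44 to 9.90, against 9.12 to 9.60 and 8.62 to 8.97. For 7 adipocyte markers (of 9 listed) the ranges were 4.64 to 5.52 and 5.32 to 6.54, against 5.95 to 8.19 and 5.30 to 5.97. The 10 skeletal muscle markers varied most, from 7.14 to 11.53 and from 10.20 to 12.11, against 10.14 to 10.94 and 6.64 to 9.99. For the myeloid lists, 9 macrophage markers (of 10 listed) had median line differences of 0.01 under IgG and -0.44 under anti-PD-1. Those of 6 neutrophil markers (of 8 listed) were 0.345 and -0.30. The T and NK cell markers had -0.56 and -0.71, below 0 under both antibodies, unlike the immune and myeloid genes under IgG. Of the 816 genes, 57 are in a host cell marker list or in the matrix or immune list, with medians of 0.13 and -0.14, and without them the medians of the other 759 were 0.25 and 0.30. The part of host cells in single genes was not tested.

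**Figure D5:**
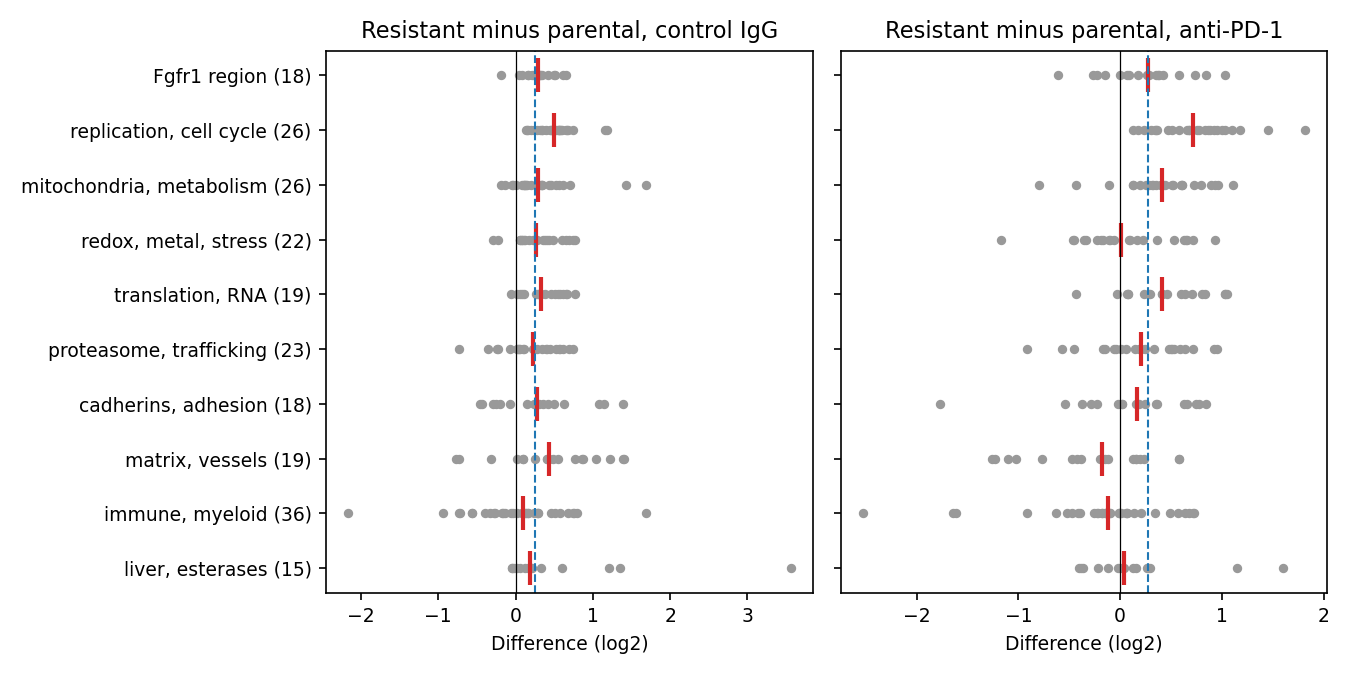
Difference between resistant and parental tumours (log2) of each gene in 10 role lists of chromosome 8, under IgG and under anti-PD-1. The red tick is the median of the list, the dashed blue line the median of the 816 genes and the other line 0. Replication genes have medians of 0.50 and 0.72. Those of matrix genes are 0.43 under IgG and -0.18 under anti-PD-1.

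Cadherins and adhesion genes were mixed, with medians of 0.28 and 0.17 over 18 tested. Of these 12 were above 0 under each antibody, 4 and 7 were called higher and 1 was called lower under each. Cdh13, a cadherin anchored in the membrane by a lipid, read 6.21, 6.15 and 5.88 in parental and 7.63, 7.50 and 7.30 in resistant IgG tumours, and 6.56, 6.38 and 7.09 against 7.49, 7.51 and 7.57 under anti-PD-1. It was higher without overlap by 1.40 and 0.85. Cdh15, the cadherin of muscle precursors, was higher without overlap by 0.63 and 0.62. Cdh1, the cadherin that joins epithelial cells, did not take part: it read 11.81, 11.85 and 11.76 in parental and 11.57, 11.46 and 11.77 in resistant IgG tumours, and 12, 12.05 and 11.65 against 11.74, 11.69 and 11.59 under anti-PD-1. Its lines overlapped, with differences of -0.21 and -0.23. Fat1, a giant cadherin of the cell edge, differed by -0.29 and -0.37, with overlap under anti-PD-1.

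Liver and esterase genes were mostly low, and 10 of the 25 named did not pass the filter. The 15 tested had medians of 0.19 and 0.04, with 4 and 3 called higher and none lower. Ces2g, a carboxylesterase whose promoter letters are shown above, read 4.60, 4.58 and 4.70 in parental and 6.39, 5.52 and 5.58 in resistant IgG tumours, and 4.16, 4.72 and 4.80 against 6.40, 5.50 and 6.57 under anti-PD-1. It was higher without overlap by 1.20 and 1.60 (SE 0.30), although the resistant arrays spread over about 1 unit. Hp, the haptoglobin that binds free hemoglobin, read 5.01, 6.43 and 6.58 in parental and 8.03, 11.79 and 8.89 in resistant IgG tumours, and 6.39, 8.04 and 9.61 against 6.15, 8.27 and 8.51 under anti-PD-1. Its arrays were the most scattered of the genes named here, with differences of 3.56 and -0.37 (SE 1.04), and only under IgG did the lines not overlap.

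The gene with the largest mean difference of the chromosome without overlap under either antibody was Smim31, which encodes a small membrane protein. It read 4.30, 4.69 and 4.83 in parental and 6.87, 6.81 and 6.44 in resistant IgG tumours, and 4.13, 4.00 and 3.23 against 6.84, 6.91 and 6.94 under anti-PD-1. The differences were 2.10 and 3.11 (SE 0.22). Inpp4b, a phosphatase of phosphoinositide signalling, read 6.66, 6.34 and 6.36 against 7.60, 7.81 and 7.68 under IgG and 6.17, 6.50 and 5.18 against 7.47, 8.15 and 7.67 under anti-PD-1, higher by 1.24 and 1.81. Ciao2b, a part of the machinery that puts iron-sulfur clusters into proteins, read 8.31, 8.20 and 8.37 against 9.44, 9.56 and 9.14 under IgG and 7.94, 8.10 and 8.11 against 9.32, 9.40 and 9.41 under anti-PD-1. Its differences of 1.09 and 1.33 had an SE of 0.11, among tight groups. Zdhhc2, a palmitoyltransferase, was higher by 1.12 and 1.36, Prmt7, an arginine methyltransferase, by 0.97 and 1.31, and Shcbp1, a protein of dividing cells, by 0.93 and 1.31. A further probe set of Prmt7 pointed the other way. Slc7a5, a transporter of large amino acids, was higher without overlap by 0.65 and 0.37.

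A small group went the other way along the same chromosome. The 19 genes lower in the resistant line without overlap under both antibodies were Prr36, Atp11a, Mcf2l, F7, F10, Atp7b, Adgra2, Rnf122, Vegfc, Atp6v1b2, Unc13a, Dnase2a, Cx3cl1, Adgrg1, Slc9a5, Marveld3, Il34, Mphosph6 and Gse1. Vegfc, a growth factor of lymphatic vessels, read 7.17, 7.02 and 6.88 in parental and 6.30, 6.08 and 6.37 in resistant IgG tumours, and 7.65, 7.34 and 7.37 against 6.35, 6.15 and 6.08 under anti-PD-1. Its differences were -0.77 and -1.26 (SE 0.12). Marveld3, a protein of tight junctions, read 5.99, 5.71 and 5.52 against 4.44, 4.08 and 4.04 under IgG and 4.84, 4.96 and 4.59 against 4.53, 4.25 and 4.32 under anti-PD-1, for differences of -1.55 and -0.43 (SE 0.15). Its parental arrays were the higher ones under both antibodies, with a much smaller distance under anti-PD-1. Adgra2, an adhesion receptor of vessels, differed by -0.77 and -0.98 and F7, the coagulation factor VII, by -0.32 and -1.23. Slc9a5, a sodium and proton exchanger, differed by -0.66 and -0.64 and Atp7b, a copper pump, by -0.75 and -0.39, each with a further probe set that pointed the other way.

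Anti-PD-1 against IgG within a line was not used to choose the chromosome and was tested. In parental tumours limma called 21 of the 816 genes, 12 higher and 9 lower, beside 3.5% of all genes called (1.23% higher and 2.27% lower), and the chromosome's median difference of -0.01 equalled that of the other chromosomes. The share called on chromosome 8 was 2.57%. Jund, a subunit of the AP-1 transcription factor, read 10.44, 10.45 and 10.43 under IgG and 11.04, 10.90 and 11.25 under anti-PD-1. It rose by 0.62 (SE 0.09, adjusted p = 0.0184, limma), with all 3 anti-PD-1 arrays above all 3 IgG arrays, and in resistant tumours it read 10.61, 10.49 and 10.47 against 10.60, 10.68 and 10.54. The 1 further probe set of Jund pointed the other way. Junb, another AP-1 subunit, rose by 0.55 (adjusted p = 0.0299).

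The other genes named by p in parental tumours were Aars, which charges transfer RNA with alanine and rose by 0.38 (adjusted p = 0.0252), Jak3, a kinase of cytokine receptors that rose by 0.56 (adjusted p = 0.0281), and Piezo1, a channel opened by stretch that rose by 0.50 (adjusted p = 0.0281). Jak3 read 6.30, 6.57 and 6.69 under IgG and 7.01, 7.08 and 7.15 under anti-PD-1, and its resistant arrays, between 7.08 and 7.31, were as high under either antibody. Marveld3, with the values given above, fell by 0.94 (adjusted p = 0.022). Gins4 read 7.87, 7.86 and 7.82 under IgG and 7.43, 7.55 and 7.38 under anti-PD-1, and fell by 0.40 (adjusted p = 0.0335). The clone 6820431F20Rik fell by 0.39 (adjusted p = 0.0374) and Zfp958, a zinc finger gene, by 0.61 (adjusted p = 0.0431).

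Slc7a2, a transporter of arginine and other cationic amino acids that was named from the redox list, had the largest change of the 21 called genes. It read 7.80, 8.37 and 8.17 under IgG and 9.33, 9.01 and 9.71 under anti-PD-1, and rose by 1.24 (SE 0.26, adjusted p = 0.0344, limma). The groups did not overlap, while the resistant arrays read 8.05, 7.26 and 8.14 under IgG and 8.49, 7.94 and 8.12 under anti-PD-1. Klf2, a transcription factor of endothelium and resting lymphocytes that was picked after its values were seen, rose by 0.62 (adjusted p = 0.0371). In resistant tumours the 21 genes differed by -0.30 to 0.37, and none was called.

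These calls hung on single arrays, as did those over all genes. Without replicate 2 or without replicate 3 of the parental IgG group none of the 816 was called, beside 0.071% and 0.058% of all genes. Without replicate 1 of that group 6 were (1.065% of all genes), and without replicate 3 of the parental anti-PD-1 group 2 were (0.37%). A fit of only the parental arrays called 0 as well, beside 0% of all genes. In the main fit 181 of the 816 (22.2%) had an unadjusted p under 0.05, beside 21.9% of all genes. No gene of the 8 named by p kept its call under every omission, and the adjusted p of Jund ran from 0.0188 to 0.0714. Replicate 1 of the parental IgG group and replicate 3 of the parental anti-PD-1 group stood apart from their groups on the leading components over all genes (48.5% and 21.6% of the variance). Without both, 3 chromosome 8 genes were called, beside 0.65% of all genes, and the medians between the lines were 0.26 and 0.26.

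In resistant tumours limma called 0 of the 816 genes for anti-PD-1 against IgG, beside 0% of all genes, and 43 (5.27%) had an unadjusted p under 0.05, beside 4.76% of all genes. The chromosome's median difference was 0.06, beside 0.03 for the other chromosomes. The lowest p-values with a higher level belonged to Tex29, Borcs8 and Elmod2, with differences of 0.44, 0.29 and 0.24, and with a lower level to Cd209a, F7 and 6820431F20Rik, with -0.46, -0.55 and -0.30. For the difference between the lines in the response, the interaction, limma likewise called 0, beside 0% of all genes, with 135 (16.5%) at an unadjusted p under 0.05 beside 17.5% of all genes. The lowest p-values were those of Marveld3, Gins4 and Tex29, with interactions of 1.12, 0.51 and 0.55, and of F7, Ndrg4 and Jund, with -0.91, -0.87 and -0.54. Weights per array gave 1 call, F7, beside 0.78% of all genes.

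The tumour label and the RNA itself were checked on all arrays. The mean level of all 12 epithelial markers was lower in the resistant tumours under IgG without overlap, at 9.07 to 9.82 against 8.85 to 8.92, and ranged from 8.97 to 9.43 against 8.90 to 8.99 under anti-PD-1. Among them Krt8 and Krt18 had group means of 12.84 to 13.40, while the junction genes Ocln and Cldn4 differed by -2.97 and -0.78 under IgG and by -2.77 and -1.28 under anti-PD-1, and Epcam by -1.54 and -0.55. Not all of the 12 fell, since Muc1 was higher in resistant tumours by 0.46 and 1.00 and Krt19 by 0.22 and 0.55. The median difference of the 12 was -0.27 under IgG and -0.13 under anti-PD-1. The mean of 8 lung lineage markers (of 9 listed) also separated the lines, at 5.93 to 6.21 on parental and 5.53 to 5.68 on resistant arrays. Of these, Nkx2-1 had group means of 3.88 to 4.05 and Sftpc of 4.36 to 4.73, Foxa2 of 9.19 to 9.48 and Abca3 of 7.65 to 8.54, and Sftpb had 7.76 and 7.58 in parental against 6.09 and 6.01 in resistant tumours. The part of these markers in the chromosome 8 level was not tested. The 3' minus 5' difference of the Gapdh control probe sets, a measure of RNA integrity, was 0.14 to 0.38 on parental arrays and -0.03 to 0.09 on resistant ones, so it too separated the lines. The chromosome 8 level is set against other chromosomes on the same array, and the part of RNA integrity in it was not tested.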

How the data were processed

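RNA of whole tumours was measured on 12 Affymetrix Mouse Genome 430 2.0 arrays, 3 per group, grouped by the sample titles. The authors deposited log2 values per probe set. The log2 scale was read from the values (1.62 to 13.88, array lower quartiles 3.27 to 3.36), and the background correction, normalization and summarization are not given in the sources used here. Of 45101 probe sets, 34945 named 1 gene, 932 several and 9160 none, and 64 were controls. For 34741 the symbol was matched by gene number to a gene table of GRCm38.p6, which gave chromosomes and gene order. No gene coordinates are given apart from those of the promoters, since the files name no build. Of 18193 genes named, 15493 passed the filter. No 2 arrays were identical (0 pairs), array correlations were 0.959 to 0.997, and 0 columns were left unused.

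Differences are 5 contrasts among group means, fitted on the whole table by limma 3.58.1 (R 4.3.3) with 8 residual degrees of freedom, to which the prior added 2.98. The p-values are two-sided, Benjamini-Hochberg adjusted over 15493 genes and called under 0.05. The median SE was 0.117, and 0.166 for the interaction. No depth can be given for arrays, whose number limits the precision. The line difference under IgG and that under anti-PD-1 use different arrays, while other pairs of contrasts have a group in common and with it that group's chance values. The fit was tested on simulated data. Figures used matplotlib 3.10.9 in Python 3.11.15.

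The members, the role lists and the naming rule were chosen with earlier results of these data known. The rule picked the 12 highest and 6 lowest genes by mean line difference among those without overlap, and 3 by level and 2 by difference in each role list. It also picked the leading genes by p in the other contrasts and 9 always tested (Hp, Mcm5, Cox4i1, Fgfr1, Cdh1, Gsr, Hmox1, Nqo1, Slc7a5). Not every gene picked is described in the text. Among those left out are Adam9, Plekha2, Calr, Prdx2, Cnot7, Ddx39a, Lamp1 and Itgb1, all picked by level. The 19 lower genes, the compared subunits, the genes that bound blocks, stretches or the filter, and Junb, Klf2, Cdt1 and Mt2 are exceptions, picked with their values already known. Arrays of all groups are numbered 1 to 3. Same-numbered arrays of the resistant groups correlated weakly in their deviations (0.11, 0.12 and 0.17), and only in that contrast did every pair exceed 0.1. In parental tumours the pairs reached 0.64, 0.06 and 0.44, so these values do not settle whether the numbers pair arrays. The labels name no pairs, and the main fit used none. In resistant tumours the count with the number as a block was 0, beside 0% of all genes, as without the block. Alternatives were the probe set rule, the filter, centring, quantile normalization, a replicate block, array weights, only the groups compared, and leaving out arrays.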

Additional observations from a re-analysis of the deposited data

Results flagged for a closer look

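For 2 chromosome 8 genes every anti-PD-1 array moved one way in parental tumours and the opposite way in resistant tumours, set against the IgG arrays of the same line. F7 read 4.77, 4.67 and 4.61 under IgG and 5.31, 4.98 and 4.84 under anti-PD-1 in parental tumours, and 4.54, 4.14 and 4.42 against 3.93, 3.79 and 3.72 in resistant tumours. It differed by 0.36 in the parental and -0.55 in the resistant line, an interaction of -0.91 with an adjusted p = 0.119 (limma), which does not pass the threshold. Gins4 differed by -0.40 and 0.11 in these lines, an interaction of 0.51 with an adjusted p = 0.132 (limma), which does not pass it either.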

How the results depend on the processing

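The alternatives gave 2334 values for 156 named differences between the lines, of which 66 moved by more than the spread between replicates. None of the differences that were called changed sign. Many of these genes were named for a large difference or for lines without overlap, so little can be read from an unchanged sign. In blocks of 15 or 50 genes all remained above 0 under both antibodies. Under IgG the chromosome's median of 0.25 became 0.23 with the mean of all probe sets, 0.23 with no filter, 0.30 with a filter at the 50th percentile, 0.31 with each array centred on its median, and 0.24 to 0.28 leaving out 1 array. Under anti-PD-1 the median of 0.27 became 0.25, 0.21, 0.36 and 0.38 in the same order, 0.30 without host marker, matrix and immune genes, and 0.26 to 0.28 leaving out 1 array. The 243 genes called between the lines under IgG became 440 with array weights (33.3% of all genes called) and 143 to 255 leaving out 1 array (8.22% to 14.6%). The 407 under anti-PD-1 became from 327 (26.0% of all genes) to 388 (32.6%) leaving out 1 array. The 21 called for anti-PD-1 in parental tumours became 41 with array weights (5.93% of all genes called) and 0 with only the groups compared (0%). Without the pair of parental arrays that stood apart they became 3 (0.65%). Leaving out 1 array gave from 0 (0.058% or 0.071%) to 23 (3.27%). The interaction went from 0 to 1 with array weights (F7, beside 0.78% of all genes). It went to 0 to 1 leaving out 1 array (Tacc1, without replicate 1 of the parental anti-PD-1 group, beside 0.50% of all genes). The causes were not tested. The interaction uses all groups, so it has no fit of only the groups compared.

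With the replicate number as a block the counts were 270 between the lines under IgG, 422 under anti-PD-1, 29 and 0 for anti-PD-1 in parental and resistant tumours and 0 for the interaction. The shares of all genes called were 18.4%, 36.2%, 4.68%, 0% and 0.02% in the same order. Deviations of same-numbered arrays correlated at 0.17, -0.21 and 0.25 between the lines under IgG, 0.27, 0.09 and 0.22 under anti-PD-1, and 0.64, 0.06 and 0.44 between the antibodies in parental tumours. In these contrasts 2, 5 and 5 of 6 arrays correlated best with their own number, and 6 of 6 did so between the antibodies in resistant tumours. Whether the numbers pair arrays is not settled by these values in either line. With arrays centred, the median over all genes shifted by 0.06 under IgG and 0.11 under anti-PD-1, which is the base against which the centred medians stand. No role list's median between the lines changed sign with centring or quantile normalization.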
